A study of Schizosaccharomyces pombe with 16 samples.

Results

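The transcripts described here are the 69 mRNA-type transcripts of fission yeast (Schizosaccharomyces pombe) with a lower level in cells lacking zfs1 that passed a fixed ratio and were not left out by name. They were selected on the measured RNA-Seq values themselves. A transcript was kept where its log2 ratio of the zfs1Δ mutant to the wild type was −0.6 or lower in both pairs of libraries and its mean was at least 1 CPM (a single normalized count in 1000000 of the library). Of 7018 transcripts measured, 5177 reached that mean, 133 of them also passed the ratio, and 64 of those were left out by name. The omitted entries were 50 non-coding RNAs, 9 transcripts of 4 subtelomeric clone prefixes and 5 single genes, among them the mating regulators ste11 and mei2. Of the 69 members, 66 had an entry in the RefSeq annotation of the ASM294v3 assembly, 65 as protein-coding genes and 1, SPCP20C8.03, as a pseudogene. SPBC460.04c, SPBC460.05 and SPMTR.01 had no entry and are named by their identifiers only.

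The RNA-Seq arm had 4 libraries, 2 of a wild type (strain PN4 in the study) and 2 of the zfs1Δ mutant (FR434), whose further genotype was not given in the sources used here. The RIP-Seq arm (RNA immunoprecipitation and sequencing) had 12 libraries: total RNA input and IP of 3 experiments from h− cells carrying zfs1-TAP::kanMX6 at the zfs1 locus (FR1401), and the same from h+ leu1Δ::[Pnmt1-gfp-TAP ura4+] ura4-D18 cells (FR1424), in which the nmt1 promoter drives a TAP-tagged GFP as mock control. Both tagged strains carry the zfs1 gene. Each group was a single strain, and all cells grew exponentially in EMM minimal medium at 25°C.

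Zfs1 is a protein with tandem CCCH zinc fingers, related to mammalian tristetraprolin. Proteins of this family bind AU-rich elements, of which the nonamer TTATTTATT (with U for T in RNA) is the best known, and bring the mRNAs that carry them to decay. Loss of such a protein is known for raising the mRNAs it binds. In fission yeast, zfs1 is known for its part in mating, the pheromone response and flocculation. Many of the members encode proteins that bring nutrients across the plasma membrane, a class that fission yeast regulates strongly with the iron, nitrogen and phosphate it finds in the medium.

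Totals of deposited normalized counts lay between 42446075 and 47945097 in the RNA-Seq libraries and between 8042875 and 15701389 in the RIP-Seq libraries, except for 72878501 in the Zfs1-TAP input of experiment 1. Ribosomal RNA made 72.1% of that input and 34.7% of the GFP-TAP input of experiment 1, against 5.87% or less in the other 10 RIP-Seq libraries. Every library was therefore centred on its own median, and results without experiment 1 are given where they differ. mat1-Mc, which h− cells express, was at 309 to 456 normalized counts in the Zfs1-TAP inputs, at 0 in the GFP-TAP libraries and at 4.74 or less in the RNA-Seq libraries.

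The targeted gene is itself a member. Wild-type libraries held 10098 and 10660 normalized counts of zfs1, and the libraries labelled zfs1Δ held 6168 and 5866, which is 55.5% of the wild-type level once each library is centred on its median. Percentages of the wild-type level given from here on are back-transformed from the mean centred log2 ratio, and so differ slightly from the ratio of the printed counts. The selection required a lower level in both pairs, but the transcript was far from absent in the mutant libraries. The annotated zfs1 transcript has 4599 nt, of which 1215 nt are coding sequence, 2778 nt 5′ UTR and 606 nt 3′ UTR. Which part of it gave the remaining reads cannot be read from a table with 1 value per transcript.

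The AU-rich nonamer was searched in the annotated transcripts of the members because it is the best known binding sequence of the family. It was present 8 times, in 7 of the 66 annotated members (10.6%), against 11.8% of the 4511 protein-coding genes tested. The sites are given below with 8 bases on each side, as DNA of the sense strand, 5′ to 3′, from RefSeq ASM294v3, with the nonamer in capitals.
zfs1 (5′ UTR, chrII:3486754-3486778, minus strand): tttgggatTTATTTATTtttatttc
zfs1 (3′ UTR, chrII:3483201-3483225, minus strand): tttattctTTATTTATTtgatgacc
pfl7 (3′ UTR, chrII:117916-117940, minus strand): ttacggacTTATTTATTtaattata
SPBC36.02c (3′ UTR, chrII:836917-836941, minus strand): atcttgttTTATTTATTttgtcatg
ecl1 (3′ UTR, chrIII:2355269-2355293, minus strand): cggttcgtTTATTTATTtcttcttt
wtf5 (3′ UTR, chrIII:245207-245231, plus strand): gaaattttTTATTTATTatgaccaa
SPAC1399.01c (5′ UTR, chrI:1851832-1851856, plus strand): gctcatttTTATTTATTtacatcca
abc3 (coding sequence, chrII:125582-125606, plus strand): cttggaatTTATTTATTttttggat
Of these sites 5 lay in a 3′ UTR, 2 in a 5′ UTR and 1 inside a coding sequence.

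Since the deletion ratio selected the members, their levels in the 4 RNA-Seq libraries are a description and carry no test. All 69 were past an adjusted p of 0.05 in the limma fit of this comparison, as were 27.2% of all 5177 transcripts in the lower direction, and nothing is read from that count. The mean log2 ratio of the members ran from −2.69 for mug14 to −0.62 for erg11, with a median of −1.05. Their mean wild-type level spanned 54.6 to 73155 normalized counts. In bulk RNA, fewer cells that express a transcript and less of it in each cell cannot be told apart.

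**Figure D1:**
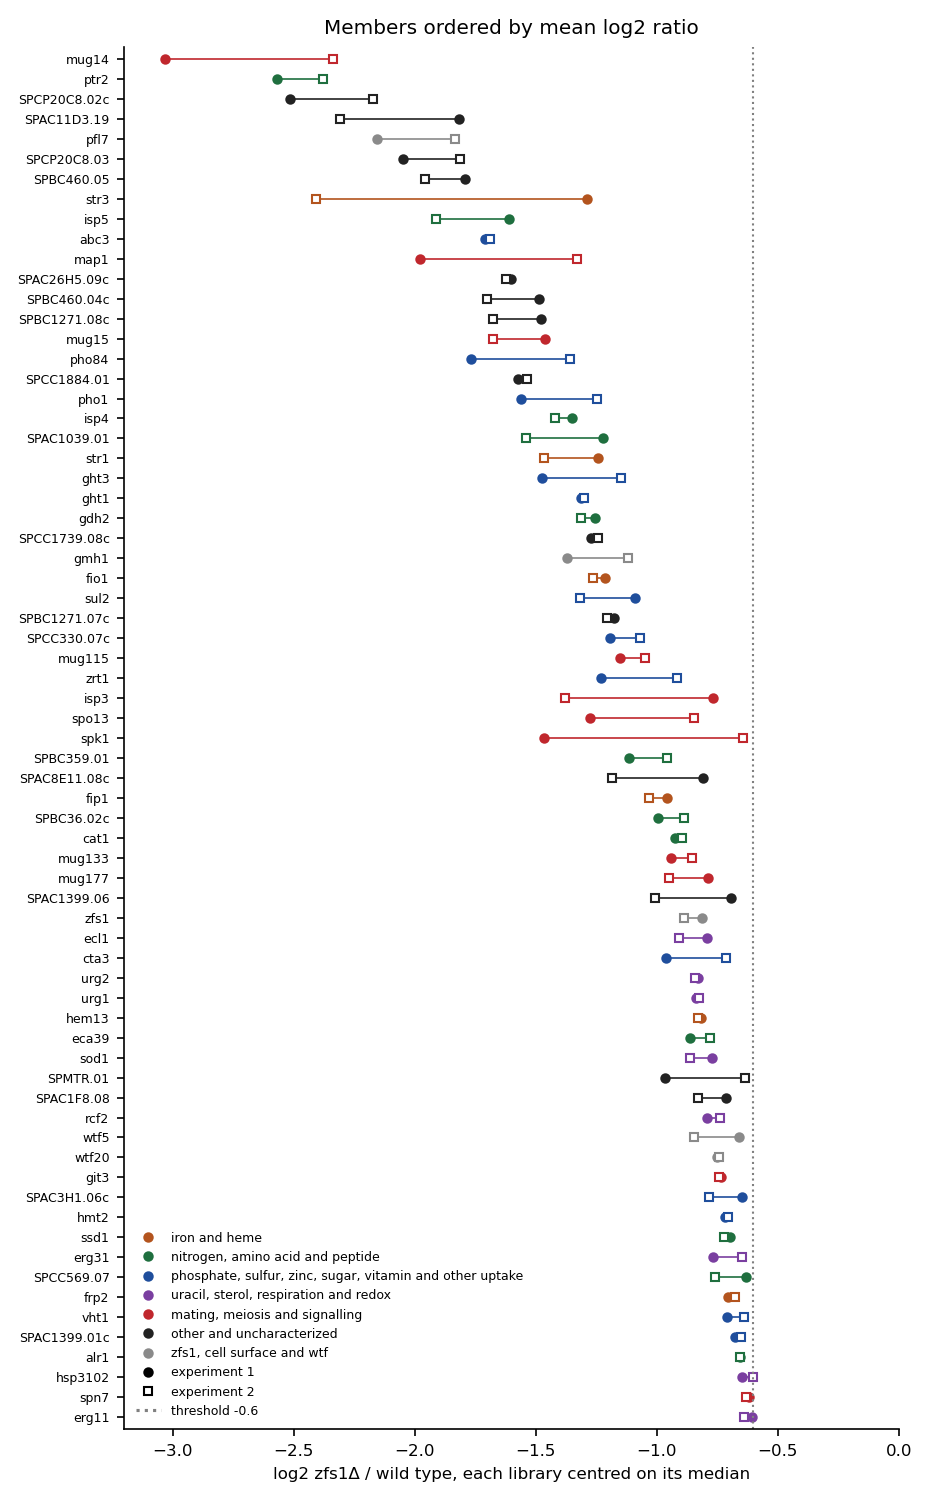
Log2 ratio of zfs1Δ to wild type for the 69 members, ordered by the mean of both experiments. Filled circles are experiment 1, open squares experiment 2, colours are functional groups, and the dotted line is the −0.6 threshold of the selection. All points lie at or left of it by construction, and mug14, str3 and spk1 show wide gaps between the experiments.

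The lowest ratio belonged to mug14, a gene of the adducin family that is upregulated in meiosis. It had 185 and 178 normalized counts in wild-type and 23.4 and 35.0 in mutant libraries, a centred level of 15.5%. map1 encodes the MADS-box transcription factor that switches on the genes of P (h+) cells. Its counts were 196 and 189 (wild type) against 52.7 and 76.1 (mutant; mean log2 ratio −1.65). spk1, the MAP kinase of the pheromone pathway, had 157 and 126 against 60.5 and 82.1, and its log2 ratios were −1.47 and −0.64 for the first and the second experiment. The log2 ratios of map1 in the same order were −1.98 and −1.33. A lower mutant level in both experiments was required by the selection for either gene.

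The other members of the mating, meiosis and signalling group were isp3, a gene of the spore surface, spo13, the meiotic septin gene spn7, the glucose receptor gene git3 and the meiotically upregulated genes mug15, mug115, mug133 and mug177. Their mean log2 ratios lay between −1.57 for mug15 and −0.62 for spn7. isp3 had 189 and 196 (wild type) against 118 and 76.1 (mutant). Most of these transcripts were scarce: the median wild-type level of the 11 members of this group was 192 normalized counts, and that of all members 1485. git3 was the most abundant of them, with 4246 and 4298 against 2739 and 2617. In the fixed list of pheromone response and Ste11-driven mating genes, 29 were tested, and 16 were lower and 6 higher in the mutant by limma (adjusted p under 0.05). The 3 members of that list are spk1, map1 and isp3. The list also holds ste11, mei2, ste4 and gpa1, which passed the same ratio and were left out by name, so the ratio chose their lower calls too. Of the 22 remaining genes 9 were lower and 6 higher, with a median log2 ratio of −0.09, against 27.2% lower and 26.1% higher among all transcripts. These 22 had 4 lower and 7 higher with the values as deposited and 10 lower and 5 higher with equal totals. Which direction was more frequent thus depended on the scaling. Removing the genes past the ratio took out low values only, here and in the lists below that hold members. Nothing was removed from all transcripts, so the remaining genes of a list are set against an uncut background.

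The nitrogen and amino acid group held 12 members. ptr2, a peptide transporter, had 3592 and 3192 normalized counts in wild-type and 648 and 625 in mutant libraries, a centred level of 18.0% of the wild type. isp5 and isp4 encode an amino acid permease and an oligopeptide transporter whose genes respond to nitrogen starvation. isp5 had 2626 and 2518 against 922 and 681, and isp4 had 5093 and 5757 against 2143 and 2193. For each of these transporters the higher mutant library lay below the lower wild-type library, which the selection on both pairs largely ensured.

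Further permeases in this group were SPAC1039.01 (1736 and 1734 against 798 and 607) and SPBC359.01 (1523 and 1447 against 756 and 758). cat1, an arginine and lysine transporter, had 4981 and 5101 against 2817 and 2789. SPBC36.02c, annotated as a spermidine transporter, had 865 and 825 against 465 and 455. These transport genes were joined by enzymes of nitrogen metabolism. gdh2, the NAD-dependent glutamate dehydrogenase that releases ammonium from glutamate, had 13293 and 13744 against 5971 and 5636. eca39, the branched-chain aminotransferase, was an abundant member, with 50270 and 52068 against 29671 and 30868. The succinate-semialdehyde dehydrogenase gene ssd1, the aromatic aminotransferase gene SPCC569.07 and the alanine racemase gene alr1 had mean log2 ratios of −0.71, −0.69 and −0.65. In the fixed list of nitrogen starvation and amino acid uptake genes, the 23 tested genes that are not members were divided, with 9 higher and 7 lower in the mutant and a median log2 ratio of 0.01 (7 higher and 8 lower with equal totals). The members of that list are isp4, isp5, ptr2, cat1 and gdh2.

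The iron group held the siderophore transporter genes str1 and str3, the reductive uptake pair fio1 (ferroxidase) and fip1 (iron permease), the ferric reductase gene frp2, and hem13, which encodes coproporphyrinogen oxidase of heme synthesis. str3 had 1876 and 2011 normalized counts (wild type) against 823 and 385 (mutant), with log2 ratios of −1.29 and −2.41 in the 2 experiments. str1 had 12366 and 11937 against 5612 and 4407. fio1 had 14941 and 12587 against 6906 and 5344, and its partner fip1 had 8375 and 7724 against 4628 and 3843. The wild-type libraries were above the mutant libraries for all 6 genes of this group, which the selection on both pairs largely ensured. frp2 was the scarcest of them (308 in each wild-type library, 202 and 196 in mutant libraries). hem13 had 5526 and 5641 against 3367 and 3230.

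In the fixed list of iron uptake genes, 12 were tested, of which 10 were lower and 1 higher in the mutant. Of the 10 lower calls 5 are the members str1, str3, fio1, fip1 and frp2, which the selection put there. Of the other 7 genes, 5 were lower and 1 higher, with a median log2 ratio of −0.16, against 27.2% lower and 26.1% higher among all transcripts. These 7 had 3 lower and 1 higher with the values as deposited, and 5 lower and 0 higher with equal totals. A lean to lower calls was not particular to iron genes. The amino acid and nucleotide synthesis list, which holds 0 members, had 30 of 43 genes lower and 5 higher, with a median of −0.14. With the values as deposited that list had 14 lower and 8 higher.

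fip1 and fio1 are divergent neighbours on chromosome I and share an intergenic stretch of 303 bp. It is shown because its letters include GATA sequences, the core bound by the iron regulator Fep1 and by the nitrogen GATA factors of fungi. The first 300 bases follow, from RefSeq ASM294v3, chrI:4234769-4235068, plus strand, with TGATAA and AGATAA (or their reverse complements) in capitals.
fip1-fio1: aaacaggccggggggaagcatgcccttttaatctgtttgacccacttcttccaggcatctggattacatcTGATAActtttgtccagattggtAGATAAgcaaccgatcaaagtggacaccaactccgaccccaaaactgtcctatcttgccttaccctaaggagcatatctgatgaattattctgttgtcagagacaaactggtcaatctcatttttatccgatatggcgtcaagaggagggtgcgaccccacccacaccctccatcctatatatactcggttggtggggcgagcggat
These letters are common: in the 250 bases upstream of the annotated start, on either strand, TGATAA stood in 30.3% of the 66 members and 23.5% of the 4511 protein-coding genes, and AGATAA in 22.7% and 21.7%. The 2 short forms were added after the data were seen. The longer TGATAAG stood in 1.52% of members and 3.33% of coding genes.

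pho84, the inorganic phosphate transporter gene, was the most abundant member by count. It had 72520 and 73790 normalized counts in wild-type and 22887 and 29309 in mutant libraries. pho1, the secreted acid phosphatase gene directly downstream of it, had 34152 and 36318 against 12434 and 15572. On the centred scale the mutant held 33.9% of the wild-type level of pho84 and 37.8% of that of pho1. The other 10 tested genes of the phosphate and thiamine list had 1 higher and 1 lower call. Sulfur was represented by sul2, a sulfate transporter gene (15317 and 14737 against 7717 and 6024), and by hmt2, which encodes the mitochondrial sulfide-quinone oxidoreductase (38570 and 37688 against 25198 and 23552). zrt1, the high-affinity zinc transporter gene, had 18886 and 18279 against 8633 and 9869. Of the 7 other copper and zinc uptake genes tested, 4 were higher and 1 lower.

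The sugar transporters ght1 and ght3, for glucose and gluconate, were low in the wild type already, at 343 and 352 and at 229 and 227, and had 148 and 145 and 87.9 and 104 in the mutant. Of the 20 genes of the sugar transport and alternative carbon list that the ratio did not choose, 8 were higher and 7 lower (7 and 8 with equal totals). vht1, the biotin transporter gene, had 54396 and 59996 against 35678 and 39248, a mean log2 ratio of −0.67. abc3, an ABC transporter gene, had 5786 and 5360 against 1897 and 1691 (−1.70). cta3 (a calcium ATPase) and the uncharacterised transporters SPCC330.07c, SPAC3H1.06c and SPAC1399.01c had mean log2 ratios from −1.13 to −0.66.

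**Figure D2:**
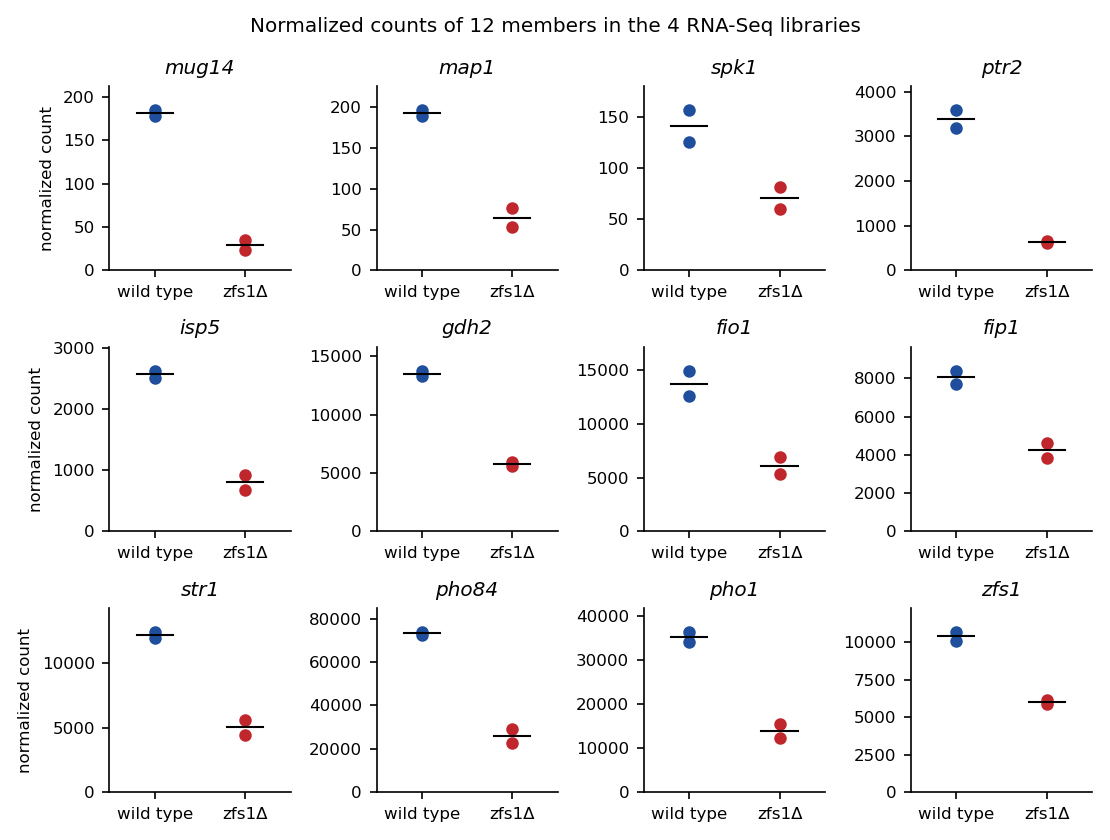
Normalized counts of 12 members in the 2 wild-type (blue) and 2 zfs1Δ (red) libraries, each on an axis that starts at 0, with a black line at the group mean. For each gene both red points lie below both blue points, which the selection largely ensured, and zfs1 is at 6168 and 5866 in the mutant.

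A smaller set belonged to sterol synthesis, respiration and redox. erg11, the sterol 14-demethylase gene, was the member closest to the threshold by its mean, with 21338 and 22342 against 15050 and 14628, and erg31, a sterol desaturase gene, had 3647 and 3766 against 2301 and 2447. In the sterol and lipid synthesis list 11 of the 16 other genes were lower and 1 higher, with a median log2 ratio of −0.12. With the values as deposited these 16 had 4 lower and 1 higher. The amino acid and nucleotide synthesis list, which holds 0 members, leaned the same way, with 30 of 43 genes lower and 5 higher. sod1, the copper-zinc superoxide dismutase gene, had 42852 and 40151 against 26957 and 22517. Of the other 33 stress effector genes tested, 20 were higher and 3 lower, against 26.1% and 27.2% of all transcripts, and sod1 and cta3 are the members on that list. rcf2 of the cytochrome oxidase, the glyoxalase gene hsp3102, the lifespan gene ecl1 and the uracil-regulated genes urg1 and urg2 had mean log2 ratios between −0.85 and −0.63.

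Per kilobase of annotated transcript the highest wild-type levels were those of sod1 (54393 normalized counts per kb), pho84 (34836), eca39 (32121), vht1 (25845), pho1 (22762) and hmt2 (19756). The lowest was that of cta3 (14.8). Levels per kb among the members thus differed by more than 3 orders of magnitude.

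The cell-surface and wtf genes were pfl7 (a DIPSY-family glycoprotein gene), gmh1 (a galactosyltransferase gene), wtf5 and wtf20. pfl7 had 433 and 356 normalized counts in wild-type and 104 and 101 in mutant libraries. It was the only member of the fixed flocculin and cell adhesion list, where 8 of the 13 others were higher and 1 lower. wtf5 and wtf20 belong to a family of near-identical copies, so reads may have been divided between relatives and their values are uncertain.

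Among the uncharacterised members, SPCP20C8.02c (269 and 256 against 49.8 and 57.1), SPAC11D3.19 (320 and 340 against 96.9 and 69.1) and the pseudogene SPCP20C8.03 (198 and 196 against 50.8 and 56.1) had the lowest ratios. SPAC26H5.09c, an oxidoreductase gene, was abundant, with 14034 and 13497 against 4956 and 4468. SPBC460.05 had 4851 and 4818 against 1504 and 1263, and SPBC460.04c had 797 and 907 against 305 and 283. The other 8 of the 14 in this group, among them the acetyltransferase gene SPBC1271.07c and the dehydrogenase gene SPCC1739.08c, had mean log2 ratios from −1.58 for SPBC1271.08c to −0.77 for SPAC1F8.08.

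The −0.6 threshold divided genes of very similar values. Just inside it lay hsp3102 (−0.65 and −0.60 in the 2 experiments), erg11 (−0.61 and −0.64), spn7 (−0.62 and −0.63) and SPCC569.07 (−0.63 and −0.76). Just outside lay SPCP20C8.01c (−0.59 and −0.65), the gene tna1 (−0.59 and −0.62), the hexose transporter gene ght4 (−0.59 and −0.68) and the citrate synthase gene cit1 (−0.77 and −0.58).

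The members were next compared with features that the selection did not use. Products annotated as a transporter, permease, symporter or antiporter made 20 of the 66 annotated members (30.3%), against 4.10% of the 4511 protein-coding genes tested. No intron was annotated in 56 of the 66 members (84.8%), against 50.2% of the coding genes. Their median annotated 3′ UTR was 354 nt, against 255 nt for all, while the median transcript length (1848 and 1766 nt) and GC content (37.4% and 37.2%) were close. These shares are descriptions, and no test of the list was made.

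Of the annotated members, 12 (18.2%) lay within 100 kb of an end of the assembled chromosome sequence, against 2.68% of the protein-coding genes tested. A further 12 lay between 100 and 200 kb, against 4.59%. The selection had already left out 9 transcripts of subtelomeric clones, so these shares are lower than without that exclusion. Nearest to an end were SPCP20C8.02c, SPCP20C8.03, SPCC569.07 and SPCC1884.01 on chromosome III, 30.6 to 37.0 kb from it. They were followed by sul2, ght3, cat1, str3 and isp3 on chromosome I, pho1 and pho84 on chromosome II, and ecl1 on chromosome III, between 70.4 and 97.1 kb. Of these 12, sul2, ght3, cat1, str3 and pho84 encode nutrient transporters.

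**Figure D3:**
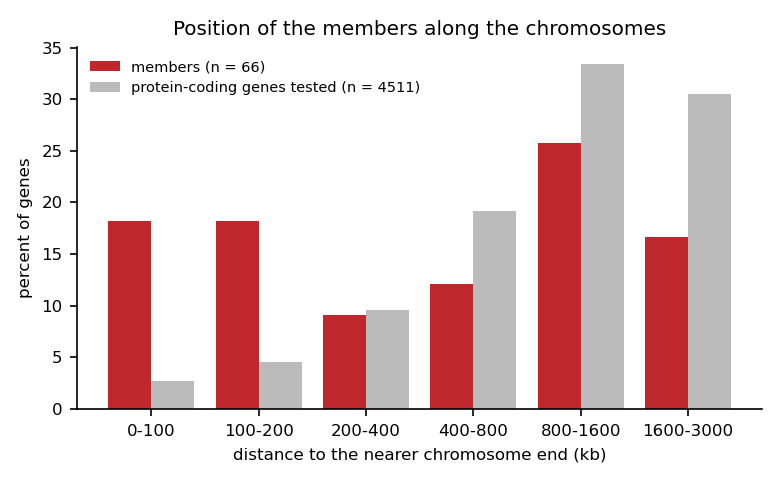
Share of genes by distance to the nearer chromosome end, for the 66 annotated members (red) and the 4511 protein-coding genes tested (grey). The red bars stand above the grey ones below 200 kb (18.2% in each of the first 2 bins) and below them beyond 200 kb.

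Members also lay beside each other. There were 15 pairs with at most 2 genes between them, 8 of them directly adjacent, which together took in 24 members. No matching count was made for other protein-coding genes, so it is not known whether 15 is more than usual. On the left arm of chromosome I, ght3, str3, isp3, SPAC1F8.08 and SPAC11D3.19 followed each other. On chromosome II the run was SPBC359.01, pfl7, abc3 and mug14. Other neighbours were urg1 and urg2, SPAC1399.06 and SPAC1399.01c, SPBC1271.08c and SPBC1271.07c, pho84 and pho1, fip1 and fio1, ght1 and wtf5, and the run SPCP20C8.02c, SPCP20C8.03 and SPCC1884.01.

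The genes lying between members differed among themselves. Of the 6 with at least 1 CPM, only urg3 (log2 ratios −0.27 and −0.40) and gcd1 (−0.48 and −0.53) were lower in both experiments. pfl8, between isp3 and SPAC1F8.08, had 173 and 159 normalized counts in wild-type and 497 and 463 in mutant libraries. SPCC1529.01, between ght1 and wtf5, had log2 ratios of 0.63 and 0.58, while pdc101 (0.05 and 0.05) and aat1 (0.14 and 0.10) differed little. Some stretches of members were therefore interrupted by genes with ratios above 0, those that held pfl8, pdc101, aat1 or SPCC1529.01. Below 1 CPM, shu1 (−0.20 and −0.55), alr2 (−1.56 and −1.75) and new22 (−1.85 and −1.35) were lower, at 14.1 normalized counts or less. hhy1 had 0 in every library.

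Annotated non-coding RNAs overlapped members or lay just upstream of them in 35 cases, of which 10 reached 1 CPM. Of these 10, 5 were also lower by 0.6 in both experiments. In the whole series 50 non-coding RNAs passed the same ratio and mean. Their share of all non-coding RNAs with 1 CPM was not computed, so nothing is read from the 5. SPNCRNA.732 at rcf2 had 163 and 153 normalized counts against 61.5 and 77.1. The log2 ratios were −1.21 and −1.65 for SPNCRNA.279 upstream of sul2, −1.03 and −1.16 for SPNCRNA.1358 antisense to eca39, and −1.09 and −0.72 for SPNCRNA.1203 antisense to git3. SPNCRNA.1096, antisense to SPCC1884.01, was far more abundant than the member itself, with 1324 and 1320 against 726 and 666. Reads were counted in a strand-specific mode, so that antisense partners were counted apart from the members. SPNCRNA.732 overlaps rcf2 by 32 bp on the same strand, and reads from there could be assigned to either.

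Motifs of transcription factors were searched in the 250 bases upstream of each annotated start, on both strands. The core of the TR box that Ste11 binds, TTCTTTGT, stood in 4 members (6.1%), against 2.97% of the protein-coding genes. They were spk1, str3, mug115 and the permease gene SPBC359.01. spk1 had 3 copies, and its window is shown because the other members had 1 copy each (RefSeq ASM294v3, chrI:3001519-3001768, minus strand, TR box core or its reverse complement in capitals).
spk1: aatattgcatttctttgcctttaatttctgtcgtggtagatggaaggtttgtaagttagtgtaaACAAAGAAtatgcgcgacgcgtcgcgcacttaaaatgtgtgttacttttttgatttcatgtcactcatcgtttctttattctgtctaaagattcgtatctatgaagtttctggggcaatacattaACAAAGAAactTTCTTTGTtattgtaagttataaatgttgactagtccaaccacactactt
No TR box core stood in this window of map1, mug14 or isp3. The Atf1 site core TGACGT was in 9.09% of members and 5.23% of coding genes, CCCCTC in 3.03% and 1.77%, CCAAT in 25.8% and 35.1%, the MBF site ACGCGT in 4.55% and 2.44%, and the forkhead site GTAAACA in 10.6% and 14.6%. A match of letters is not a bound site.

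RIP-Seq, which had no part in the selection, asked whether Zfs1 was bound to these transcripts. In the Zfs1 IP 15 of 66 members tested were enriched over input and 17 depleted (limma with the experiment as a block, adjusted p under 0.05). Among all 5929 transcripts tested 30.2% were enriched and 32.4% depleted, so the members' shares of 22.7% and 25.8% were no higher than the background. The median log2 Zfs1 IP/input ratio was 0.07 for the members and −0.12 for all transcripts. The depleted calls depended on scaling: with equal totals 10 members were enriched and 0 depleted, and with the values as deposited 8 and 2. Those scalings put the median of all transcripts at 0.23 and −0.44. Without experiment 2 or 3 the depleted members were 11 and 5.

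The mock-control GFP IP enriched 8 of 67 members and depleted 1, against 14.8% and 3.16% of 5887 transcripts. The enriched ones were SPAC26H5.09c, spn7, isp4, spk1, SPCC569.07, erg11, SPBC460.04c and ptr2, and the depleted one was ecl1. With equal totals 1 member was enriched and 2 depleted, and with the values as deposited 5 and 3. Of all 5887 transcripts, equal totals called 168 enriched and 294 depleted, and the values as deposited 651 and 430. Without experiment 1, 2 or 3 the enriched members were 5, 2 and 1. Over all transcripts 561 of 5846, 454 of 5891 and 59 of 5871 were enriched in these runs.

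The test of the difference between Zfs1 and GFP enrichment found 14 of 68 members higher and 12 lower, against 20.1% and 26.8% of 5933 transcripts. The members' share of higher calls (20.6%) was thus at the background and their share of lower calls (17.6%) below it. With equal totals 13 were higher and 0 lower, and with the values as deposited 9 and 4. Of all 5933 transcripts, equal totals called 1016 higher and 103 lower, and the values as deposited 585 and 671. The median difference was −0.05 for the members and −0.11 for all transcripts.

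The members higher in this contrast included transporters, signalling genes and zfs1 itself. SPBC36.02c, the spermidine transporter gene, had 691, 250 and 184 normalized counts (input) against 10043, 3974 and 2117 (IP) for Zfs1-TAP. For GFP-TAP it had 314, 394 and 379 (input) against 411, 361 and 286 (IP). On the centred scale its log2 IP/input was 5.27, 3.72 and 3.36 in the Zfs1 experiments and 0.78, −0.32 and −0.33 in the GFP experiments, without overlap (contrast log2 4.08 ± 0.52 SE, adjusted p = 0.000512 by limma).

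The lifespan gene ecl1 behaved alike, with 1471, 657 and 517 (input) against 3495, 5919 and 4233 (IP) for Zfs1-TAP and log2 IP/input ratios of −0.39, −1.12 and −0.90 for GFP-TAP (3.62 ± 0.26, adjusted p = 7.24e-05). zfs1 mRNA itself had 2248, 1348 and 1361 (input) against 6637, 12264 and 7389 (Zfs1 IP; 2.31 ± 0.27, adjusted p = 0.000334). In this strain the zfs1 gene carries the TAP tag and kanMX6. Whether its mRNA keeps the annotated 3′ UTR was not stated in the sources. The dehydrogenase gene SPCC1739.08c had the highest Zfs1 IP/input ratio of all members, a log2 of 4.76, and log2 ratios of 0.57, 1.54 and 2.15 in the GFP IPs, so that the contrast was 3.34 ± 0.55 (adjusted p = 0.00155). SPAC1399.01c (2.61 ± 0.28) and wtf5 (2.42 ± 0.35) are further nonamer carriers, with log2 Zfs1 IP/input ratios of 3.14 and 2.54.

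For pfl7 (4.59 ± 0.93), alr1 (3.97 ± 1.01) and gmh1 (3.08 ± 0.97), the centred GFP IP values were also below the GFP inputs in each experiment. alr1 had 138, 116 and 120 in the GFP inputs and 68.4, 45.6 and 2.59 in the GFP IPs, and pfl7 had 34.7, 10.9 and 16.8 against 16.2, 1.39 and 1.38. Their log2 Zfs1 IP/input ratios were 2.59 for pfl7, 1.59 for alr1 and 1.36 for gmh1, all past the threshold (adjusted p from 0.00105 to 0.00533). The gmh1 contrast was lost without experiment 1 (adjusted p = 0.0839).

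spk1 and map1, the mating members, were also higher. spk1 had 223, 56.8 and 42.4 (input) against 345, 1007 and 537 (IP) for Zfs1-TAP, but rose in the GFP IPs too, from 225, 154 and 181 to 335, 423 and 416. The difference of the 2 enrichments was 1.96 ± 0.50 (adjusted p = 0.0112). map1 had 123, 49.8 and 34.4 (input) against 227, 183 and 86.6 (IP) for Zfs1-TAP (1.94 ± 0.50, adjusted p = 0.0121). These calls were less stable: without experiment 2 the adjusted p was 0.0871 for spk1 and 0.0893 for map1, without experiment 3 it was 0.0685 for spk1, and without experiment 1 it was 0.0838 for map1. The peptide transporter gene ptr2 (1.49 ± 0.28), the permease gene SPAC1039.01 (1.51 ± 0.34) and SPBC1271.08c (1.40 ± 0.37) had the smallest differences. ptr2 was lost with no replicate block (adjusted p = 0.0882). With the values as deposited none of map1, spk1, ptr2, SPAC1039.01 and SPBC1271.08c was past the threshold (adjusted p from 0.112 to 0.275), and map1 was not with equal totals either (0.0566). SPAC1039.01 was lost without experiment 2 (adjusted p = 0.0508) and SPBC1271.08c without experiment 3 (0.104).

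**Figure D4:**
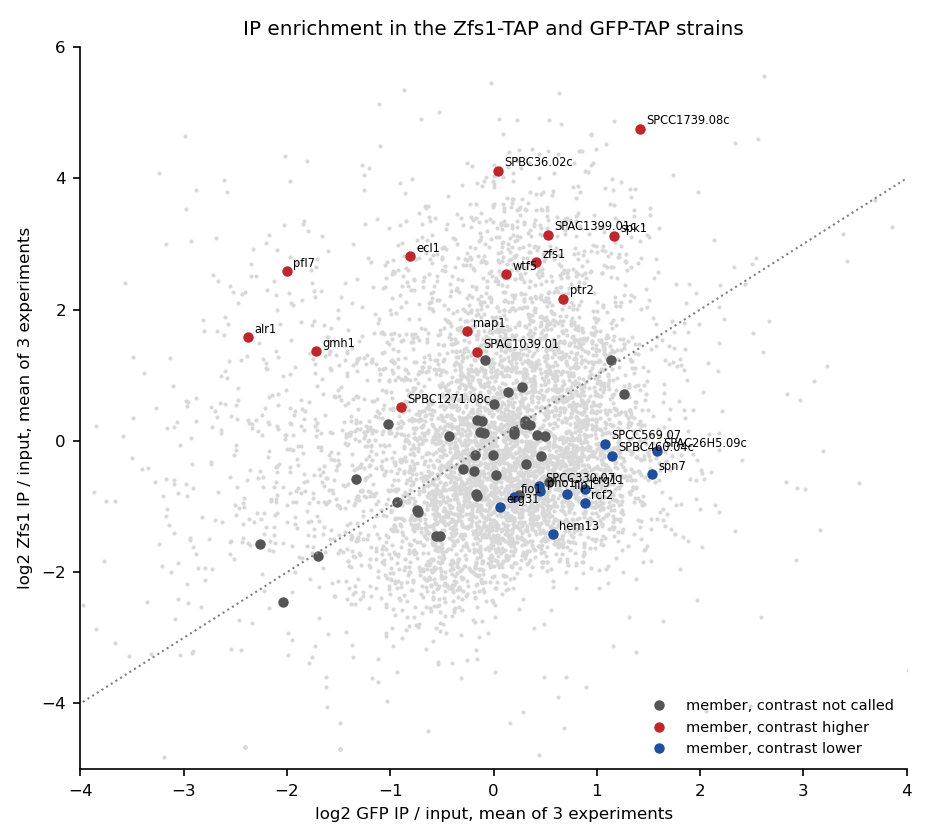
Mean log2 IP/input in the Zfs1-TAP strain against that in the GFP-TAP strain, for all transcripts tested in both (light grey) and for the members, with red for members higher and blue for members lower in the contrast, and dark grey for those not called. The dotted line marks equal enrichment. SPCC1739.08c (4.76) and SPBC36.02c (4.12) lie highest, and hem13 (−1.42) lies lowest among the blue points.

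The 12 members lower in the contrast included hem13, fip1 and fio1 of the iron and heme group, the sterol genes erg11 and erg31, and pho1. The meiotic septin gene spn7 had 598, 220.2 and 210.5 (input) against 139.9, 162 and 214 (IP) for Zfs1-TAP, and 239.8, 221 and 246 against 717, 736 and 499.7 for GFP-TAP (−2.04 ± 0.36, adjusted p = 0.00214). hem13 went from 4102, 1041 and 1126 to 669, 535 and 350 in the Zfs1 strain (−1.99 ± 0.25, adjusted p = 0.000512). rcf2 (−1.83), SPAC26H5.09c (−1.74), erg11 (−1.62), fip1 (−1.52), SPBC460.04c (−1.37), pho1 (−1.22), SPCC330.07c (−1.13), SPCC569.07 (−1.12), erg31 (−1.08) and fio1 (−1.06) followed. None of the 12 kept its call with equal totals, where their adjusted p ran from 0.204 to 0.782. Lower calls over all 5933 transcripts fell likewise, from 1589 to 103 with equal totals. The lower direction is therefore relative to the median transcript, for the members as for all transcripts. Without experiment 2, 5 members and 917 of all 5931 transcripts were lower.

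Of the 14 higher members, 8 kept their call under every alternative run: SPBC36.02c, ecl1, zfs1, SPCC1739.08c, SPAC1399.01c, wtf5, pfl7 and alr1. The nonamer stood in 6 of the 14 (42.9%), against 40.5% of the 969 protein-coding genes called higher, in 0 of 11 annotated members called lower, and in 1 of 40 not called, which is abc3. The share of nonamer carriers among the higher members was thus close to that among all higher coding genes. zfs1 is counted as a carrier by its annotated transcript, although the gene is tagged in the Zfs1-TAP strain. abc3, whose site lies in the coding sequence, was enriched in the Zfs1 IP (log2 0.74, adjusted p = 0.00934), but its difference from GFP was 0.60 (adjusted p = 0.153). ptr2, map1, spk1, alr1, gmh1, SPAC1039.01, SPCC1739.08c and SPBC1271.08c were higher without this nonamer in their annotated transcript.

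Several of the members with the lowest deletion ratios were not called in the contrast. mug14 (1.28 ± 0.68, adjusted p = 0.150), SPCP20C8.02c (0.75 ± 0.83, 0.488), isp5 (0.27 ± 0.33, 0.522) and str3 (0.22 ± 0.51, 0.750) are examples. For mug14 and SPCP20C8.02c the error is too wide to tell. isp4 had 1.24 in the Zfs1 IP but 1.14 in the GFP IP, and a contrast of 0.09 ± 0.25 (adjusted p = 0.772). The lowest Zfs1 IP/input ratios were those of isp3 (−2.46), mug177 (−1.75), SPAC8E11.08c (−1.57), SPBC1271.07c (−1.45) and SPAC11D3.19 (−1.44), and none of these differed from GFP past the threshold. spo13 and SPMTR.01 were too scarce to be tested in the Zfs1 IP, and hsp3102 in either IP or the contrast.

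The inputs of the tagged strains offered a further comparison of levels that the selection did not use. It does not repeat the deletion: both strains carry zfs1, and tag, mating type, leu1 and ura4 differ between them and cannot be told apart. The members' median log2 ratio of Zfs1-TAP to GFP-TAP input was −0.24, against −0.01 for all 5893 transcripts tested. The mean was lower in the Zfs1-TAP inputs for 57 of 69 members (82.6%), against 51.5% of all transcripts. All 3 Zfs1-TAP inputs lay below all 3 GFP-TAP inputs for 17 members (24.6%), against 7.65% of all transcripts. They lay above them for 1 member (1.45%), and the share of all transcripts in that direction was not computed.

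In single experiments the members' medians were −0.38, −0.19 and −0.10, so that experiment 1, with its high share of ribosomal RNA, gave the widest difference. The part of ribosomal RNA in it was not tested. The members' median lay below that of all transcripts with the values as deposited (0.19 and 0.42) and with equal totals (−0.66 and −0.43) as well. Single transcripts were mostly within the error: 13 members (18.8%) had an unadjusted p under 0.05, against 6.74% of all transcripts, and after adjustment SPMTR.01 alone was lower (1 of 69, with 0.017% of all transcripts called lower) and 0 were higher (0.0848% of all). SPMTR.01 had 102, 95.5 and 87.9 in the GFP-TAP inputs and was at or near 0 in the Zfs1-TAP inputs. With the experiment as a replicate block, the pairing that the input libraries showed, its adjusted p was 0.0980, and without experiment 2 or 3 it was 1.00. Its RNA-Seq levels were 210.4 and 207 (wild type) against 115 and 135 (mutant). The h− gene mat1-Mc had the opposite pattern, with 456, 320 and 309 in the Zfs1-TAP inputs and 0 in the GFP-TAP inputs. In RNA-Seq mat1-Mc was at 4.74 or less. A part of mating type in the SPMTR.01 difference was not tested, since tag, leu1 and ura4 differ between the strains too.

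Without experiment 1 the spread between inputs was smaller, and 10 members were lower and 2 higher, against 10.2% and 10.9% of 5895 transcripts. The lower ones were SPMTR.01, mug14 (−3.46), spk1 (−1.80), ght3 (−1.34), wtf20 (−1.22), map1 (−1.14), SPBC36.02c (−0.90), SPBC1271.08c (−0.72), SPBC359.01 (−0.57) and SPBC1271.07c (−0.33), with adjusted p between 0.0101 and 0.0472. The higher ones were zrt1 (0.49, adjusted p = 0.0326) and erg31 (0.68, adjusted p = 0.0233). mug14 had 30.3, 15.2 and 17.3 (Zfs1-TAP) against 50.3, 333 and 98.9 (GFP-TAP), a wide spread among the latter. Of the mating, meiosis and signalling group, mug14, spk1 and map1 were thus called in this run, while isp3 (0.11), git3 (0.11) and spn7 (−0.17) were among those not called. With all 3 experiments 0 of the 11 members of that group were called (limma, adjusted p = 0.344 for map1 and 0.244 for spk1). Tag, mating type, leu1 and ura4 cannot be told apart in either fit.

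**Figure D5:**
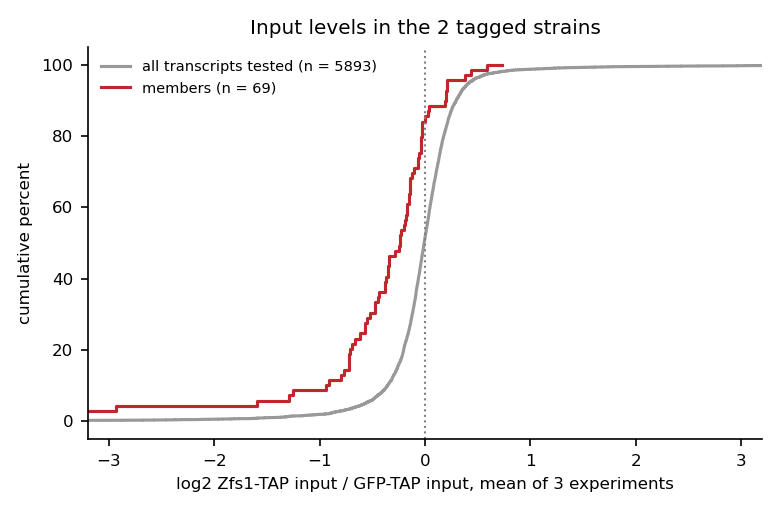
Cumulative share of transcripts by the mean log2 ratio of Zfs1-TAP to GFP-TAP input over 3 experiments, for the 69 members (red) and all 5893 transcripts tested (grey), with the axis cut at −3.2 and 3.2. The red curve lies to the left, with a median of −0.24 against −0.01, and 82.6% of members lie below 0.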

How the data were processed

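The deposited tables hold normalized counts, which the authors made as edgeR-normalized signal per transcript from estimated counts of RSEM 1.1.19 with Bowtie 0.12.7 against a PomBase genome download. Reads were 100 bp, paired and strand-specific, after ribosomal RNA depletion, and RSEM counted them by strand. RIP-Seq and RNA-Seq were normalized in separate tables, and no test crosses them. The deposited signal is not raw counts and its steps are not whole reads, so a test for normalized values was used. Depth limits the precision of scarce members.

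Values below 1e-10 were set to 0. The log2 of value + 1 was centred on each library's median and fitted with limma 3.58.1 in R 4.3.3 (trend, Benjamini-Hochberg over all transcripts averaging 1 CPM or more, threshold 0.05). Fold changes are on the log2(value + 1) scale, which understates changes of low transcripts. IP and input of an experiment were paired as a block, since they come from the same culture (correlation of their deviations 0.0977 to 0.482). The inputs of the 2 strains were fitted without a block in the main analysis, although their deviations correlated as well (0.236 to 0.661). The RNA-Seq fit had the experiment as a block, as in the study's paired test, but its deviations did not correlate (−0.0664), so the numbers do not pair those libraries. The fits were also run on simulated data without experiment effects or unequal ribosomal RNA shares, which does not vouch for the real libraries. Replicates are described as biological repeats. Sequences and positions came from RefSeq ASM294v3, matched by locus tag for 66 of 69 members, with Python 3.11.15.

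The named transcripts follow a rule: the 15 lowest ratios, the 4 nearest each side of the threshold, the 10 highest and 5 lowest Zfs1 IP ratios, those called in the contrast or the inputs, the 6 highest per kb, members of a gene list, neighbours and nonamer carriers. The members, groups and lists were chosen with earlier results of these data known. Gene lists for mating, stress, nitrogen, iron, copper and zinc, phosphate, sugar, flocculin and sterol genes were hand-written. So were lists for septum cleavage, G1/S, strain marker, sulfur, and amino acid and nucleotide synthesis genes. Alternatives were values as deposited, equal totals, a pseudocount of 5, at least 10 CPM, no filter, no trend, other blocking, and each experiment left out.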

Additional observations from a re-analysis of the deposited data

Results flagged for a closer look

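The enrichment in the Zfs1-TAP strain differed from that in the GFP-TAP strain, by the test of the difference itself (limma, adjusted p under 0.05, 3 experiments each), for 26 members. It was higher for pfl7 (log2 difference 4.59), SPBC36.02c (4.08), alr1 (3.97), ecl1 (3.62), SPCC1739.08c (3.34), gmh1 (3.08), SPAC1399.01c (2.61), wtf5 (2.42), zfs1 (2.31), spk1 (1.96), map1 (1.94), SPAC1039.01 (1.51), ptr2 (1.49) and SPBC1271.08c (1.40). It was lower for spn7 (−2.04), hem13 (−1.99), rcf2 (−1.83), SPAC26H5.09c (−1.74), erg11 (−1.62), fip1 (−1.52), SPBC460.04c (−1.37), pho1 (−1.22), SPCC330.07c (−1.13), SPCC569.07 (−1.12), erg31 (−1.08) and fio1 (−1.06). The 14 higher calls (20.6% of 68 members) stood against 20.1% of 5933 transcripts, and the 12 lower calls (17.6%) against 26.8%. With equal totals none of the 12 lower calls was kept. The strains also differ in mating type and markers, which cannot be told apart from the tagged protein.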

How the results depend on the processing

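The selection gave 40 members with at least 10 CPM and 43 at −0.8. With experiment 1 left out it gave 100 and with experiment 2 left out 87. With the values as deposited 59 of the 69 were kept, and with equal totals all 69 of 78. Over all transcripts the deposited values gave 710 lower in the mutant instead of 1409.

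In the Zfs1 IP, 8 members were higher and 2 lower as deposited, 10 and 0 with equal totals. With no replicate block 14 were higher and 9 lower, and leaving out experiments gave 14 to 17 higher and 5 to 16 lower (fewest without experiment 3). In the GFP IP, 5 were higher and 3 lower as deposited, 1 and 2 with equal totals, 0 and 0 without the trend, and 2 and 0 with no replicate block. Lower GFP calls were 2 at 10 CPM and 0 without the filter. Leaving out experiments gave 1 to 5 higher and 0 to 1 lower. Over all transcripts the GFP IP gave 1 higher and 6 lower without the trend, and 649 and 118 with no replicate block. The smaller counts in these runs were thus not particular to the members.

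In the contrast, 9 were higher and 4 lower as deposited, 13 and 0 with equal totals, and 13 and 4 with no replicate block. Leaving out experiments gave 11 to 12 higher and 5 to 9 lower. Over all transcripts these runs gave 756 to 1182 higher and 917 to 1402 lower, against 1192 and 1589 in the main fit. Without experiment 2 the calls of erg31, fip1, fio1 and SPCC330.07c were lost (adjusted p 0.105, 0.0706, 0.0956 and 0.0734, limma). SPBC460.04c, pho1 and SPCC569.07 were lost whichever experiment was left out.

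In the inputs, 2 members were lower with equal totals, 0 with a pseudocount of 5, 0 at 10 CPM and 0 with the replicate block, and leaving out experiments gave 0 to 2 higher and 0 to 10 lower (most without experiment 1). Of the tests of single members under alternatives, 444 kept their call, 135 lost it and none reversed. The cause was not tested. The deletion fit with 1 experiment left out has no residual degrees of freedom and was not run as a test.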
